A study of Mus musculus with 19 samples.

Results

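The keratins described here are the 10 genes Krt4, Krt13, Krt76, Krt78, Krt84, Krt36, Krt1, Krt10, Krt2 and Krt24, which mark the suprabasal layers and the tongue papillae of stratified squamous epithelium. They were chosen by name, as the rows of the gene count table whose Ensembl identifiers carry these symbols, and make up 10 of its 55487 rows. Of the 10 keratins, 9 passed the filter on low counts and were tested among 16909 genes, and Krt2 did not pass.

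RNA was sequenced from 19 samples labelled oral squamous cell carcinoma, taken from C57BL/6J mice. From an age of 6 weeks, all of the mice drank 4NQO (4-nitroquinoline 1-oxide, a carcinogen that damages DNA) at 100 µg/ml for 10 weeks, followed by plain water, so the vehicle group had received the carcinogen too. The groups were vehicle (4 libraries), regorafenib (a multikinase inhibitor, 5 mg/kg/day, 4 libraries), anti-PD1 (an antibody against an inhibitory receptor of T cells, 3 libraries), regorafenib with anti-PD1 (called the combination below, 5 libraries) and an anti-CD40 agonist (an antibody that activates a receptor of antigen-presenting cells, 3 libraries). The labels name no transgene, give the regorafenib dose once and no separate dose for the combination, give no schedule for the anti-CD40 agonist, and do not tie libraries to animals. The p-values below therefore reflect only how much these libraries varied.

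Keratins form intermediate filaments as obligate pairs of a type I and a type II chain. In stratified epithelium, basal cells make Krt5 and Krt14, and cells that leave the basal layer switch to other pairs that depend on the site. In non-cornified lining of the mouth and oesophagus the suprabasal pair is Krt4 with Krt13, in cornified epidermis it is Krt1 with Krt10, joined by Krt2 in the upper layers, and the filiform papillae on the back of the tongue also hold keratins of the hair type such as Krt84 and Krt36. Krt76 is a suprabasal type II keratin of the palate, gingiva and tongue. Of the 10 keratins, 6 are type II (Krt4, Krt76, Krt78, Krt84, Krt1 and Krt2) and lie on chromosome 15, and 4 are type I (Krt13, Krt36, Krt10 and Krt24) and lie on chromosome 11.

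Promoter sequences are shown for Krt84 and Krt36, the papilla pair whose levels followed each other most closely, for Krt76, whose level followed both, and for Krt13, the most abundant of the 10 and the least variable. The sequences come from RefSeq on build GRCm38.p6, which held a promoter entry for 8 of the 10 keratins (all but Krt4 and Krt1). Each is the 200 bases before the start site on the minus strand, written 5′ to 3′, with the first 6-base match to ATANAA between positions -50 and -15 from the start site in capitals.
Krt84, chr15:101532821-101533020: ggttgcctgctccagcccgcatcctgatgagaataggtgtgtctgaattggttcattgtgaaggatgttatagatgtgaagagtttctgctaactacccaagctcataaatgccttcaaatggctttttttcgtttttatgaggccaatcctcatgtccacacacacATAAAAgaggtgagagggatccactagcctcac
Krt36, chr11:100105627-100105826: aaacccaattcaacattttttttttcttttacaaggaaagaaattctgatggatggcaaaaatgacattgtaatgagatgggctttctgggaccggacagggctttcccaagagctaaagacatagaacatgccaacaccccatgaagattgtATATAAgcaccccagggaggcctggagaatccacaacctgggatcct
Krt76, chr15:101892921-101893120: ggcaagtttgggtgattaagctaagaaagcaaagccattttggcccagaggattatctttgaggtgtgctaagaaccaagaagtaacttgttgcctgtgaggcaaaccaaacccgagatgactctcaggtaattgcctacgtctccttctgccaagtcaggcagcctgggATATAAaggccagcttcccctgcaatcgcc
Krt13, chr11:100121567-100121766: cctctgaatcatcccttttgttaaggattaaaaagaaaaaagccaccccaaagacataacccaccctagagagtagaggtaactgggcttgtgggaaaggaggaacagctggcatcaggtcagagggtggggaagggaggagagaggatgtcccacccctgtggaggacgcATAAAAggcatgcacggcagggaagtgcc

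The match began at position -33 in Krt84, -47 in Krt36, -30 in Krt76 and -29 in Krt13. All 8 keratin promoters examined held ATANAA on the sense strand in that window, as did 24 of 37 keratin promoters of every kind and 4.73% of 32851 mouse promoters. The motif and its window were chosen after the sequences had been read, so these counts are a description. In the whole entry of 300 bases, CACCC was found on either strand in 7 of the 8 keratins and in 57.5% of all promoters, and TGANTCA, which reads the same on both strands, was found only in Krt13 among the 8 and in 7.81% of all promoters.

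Krt13 and Krt4 were among the most abundant transcripts of these samples. On the CPM scale (counts relative to the library's effective size after TMM scaling), Krt13 averaged 27599 and ranked 2 among all genes, and Krt4 averaged 20664 and ranked 3. The 10 keratins together took between 4.48% and 6.13% of the counts of a library. To compare levels between genes, CPM was divided by exon length in kilobases, as in FPKM. In the vehicle libraries (n = 4, mean ± SD), the FPKM was 15077 ± 361 for Krt13, 9403 ± 556 for Krt4, 821 ± 212 for Krt76, 747 ± 145 for Krt36 and 365 ± 65.9 for Krt84. Below these came Krt10 at 221 ± 13.5 FPKM, Krt78 at 203 ± 31.2, Krt24 at 145 ± 37.9, Krt1 at 22.4 ± 10.7 and Krt2 at 0.0277 ± 0.0191. The neighbours Krt76 and Krt36 differed by less than the SD of either, Krt10 and Krt78 by less than the SD of Krt78, and every other step in this order exceeded the SD of both genes. Krt2, the keratin of the upper epidermal layers, had 0 to 4 counts in every library, where a count of 0 allows up to 3 counts, so its groups could not be compared at this depth.

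Library totals ran from 16776177 to 24969492 counts. Epithelial content was checked with 8 markers, all of which were tested, with a summed level between 8335 and 12046 CPM in every library. Every sample carried the carcinoma label and came from a mouse given the carcinogen, so these markers cannot check that label. Skeletal muscle markers summed to between 23136 and 47435 CPM and salivary gland markers to between 28.4 and 17872 CPM, so each sample also held RNA of other tissues in differing amounts. Stomach markers summed to between 0.397 and 1087 CPM, and only in the regorafenib libraries did all 8 have counts. The part of stomach RNA in the keratin levels was not tested. In such bulk samples, fewer cells of a type and less RNA per cell cannot be told apart.

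The mucosal keratins Krt4 and Krt13 each had similar means in all 5 groups. Krt13, the type I partner (ENSMUSG00000044041.4, chr11:100117327-100121566, minus strand, GRCm38), measured 27049, 27329, 28419 and 27026 CPM in the vehicle libraries and 28775, 32024, 28743 and 28852 CPM with regorafenib. All 4 regorafenib libraries lay above all 4 vehicle libraries, as was the case, in one direction or the other, for 16.5% of all genes tested. Its levels were 22804, 26152 and 30929.8 CPM with anti-PD1, 26660.1, 26529.9, 30824, 26146 and 24142 CPM with the combination, and 25254, 27857 and 28872 CPM with the anti-CD40 agonist. These 3 groups straddled the vehicle libraries. Against vehicle the log2 change was 0.11 ± 0.09 (SE) for regorafenib (adjusted p = 0.498, edgeR), -0.04 ± 0.10 for anti-PD1 (adjusted p = 0.921), -0.03 ± 0.09 for the combination (adjusted p = 0.946) and -0.0067 ± 0.10 for the anti-CD40 agonist (adjusted p = 0.997).

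Krt4, the type II partner (ENSMUSG00000059668.6, chr15:101918535-101924735, minus strand), measured 19029, 19034, 21161 and 21001 CPM in the vehicle libraries and 20972, 21579, 20358 and 21212 CPM with regorafenib. It measured 17588, 21113 and 26174 CPM with anti-PD1, 20519.9, 18909, 24351, 20472 and 17420.5 CPM with the combination, and 17529, 22679.5 and 21523 CPM with the anti-CD40 agonist. Every treated group overlapped the vehicle libraries. The 4 log2 changes from vehicle lay between 0.02 and 0.11. The 95% intervals of the fold change were 0.885 to 1.24 with regorafenib, 0.897 to 1.30 with anti-PD1, 0.863 to 1.19 with the combination and 0.854 to 1.23 with the anti-CD40 agonist.

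**Figure D1:**
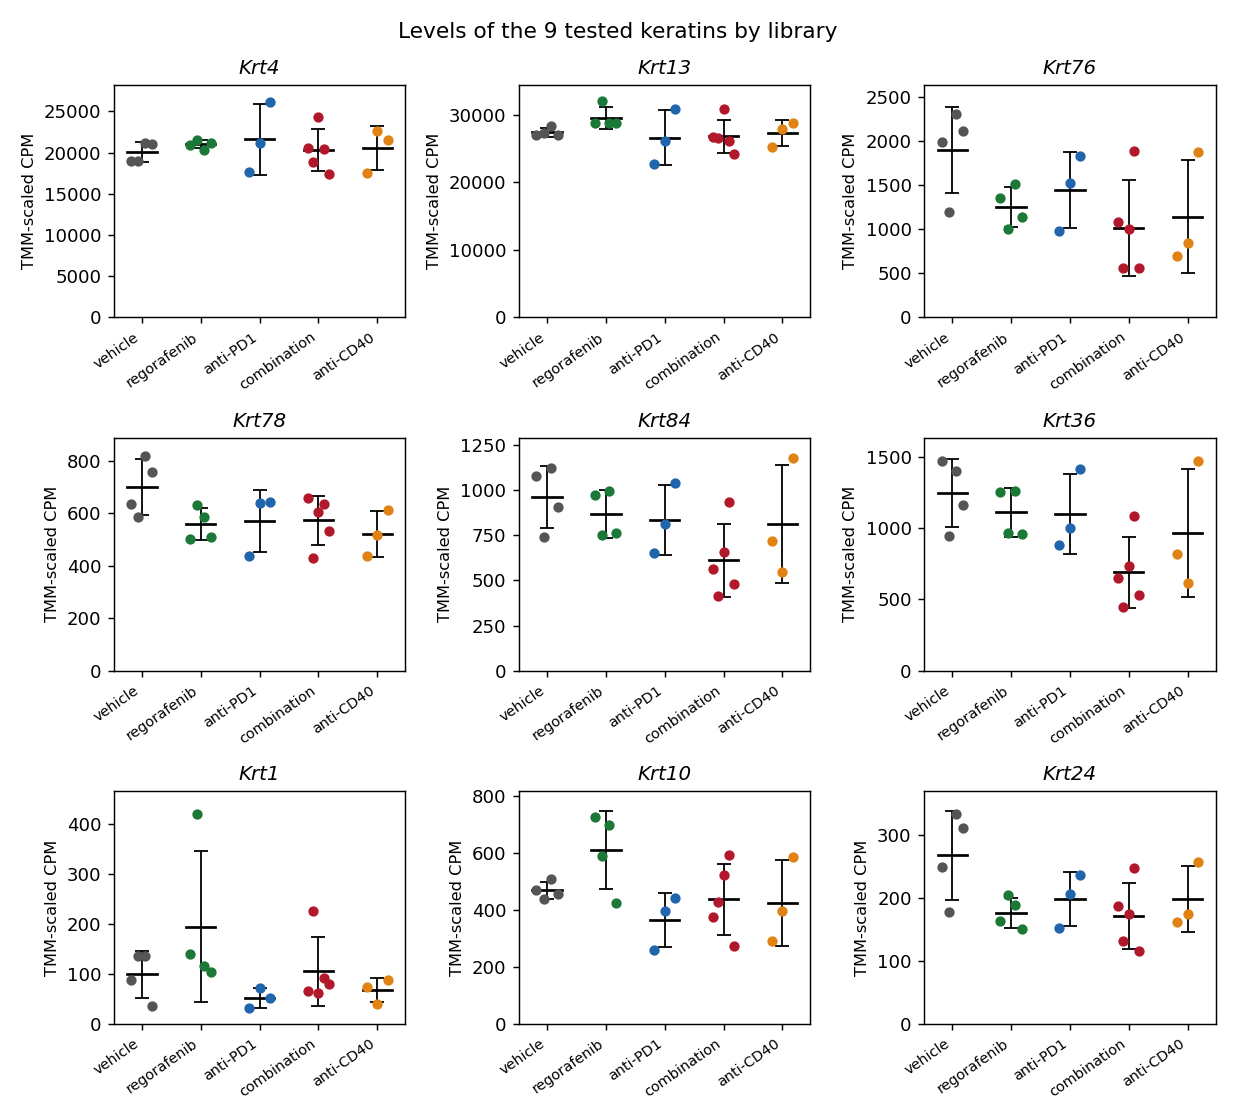
Level of each of the 9 tested keratins (TMM-scaled CPM, linear axis from 0) in every library, by treatment group, with the group mean (long bar) and SD (error bar). Krt4 and Krt13 each have similar group means, although single libraries of Krt4 run from 17420.5 to 26174 CPM. Krt84 and Krt36 are lowest on average in the combination, where 1 of the 5 libraries stands above the other 4.

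The remaining keratins varied more from library to library. Over all 19 libraries the coefficient of variation (SD divided by mean) of CPM was 8.33% for Krt13 and 10.8% for Krt4, beside a median of 10.3% over the 1716 tested genes with a mean of at least 100 CPM. It was 17.6% for Krt78, 27.8% for Krt84, 27.9% for Krt10, 28.9% for Krt24, 32.1% for Krt36, 40.2% for Krt76 and 81.8% for Krt1. Among those 1716 genes, 97.0% varied less than Krt36, 97.7% less than Krt76 and 99.0% less than Krt1. Taken around the group means, the coefficient of variation was 27.5% for Krt36 and 25.6% for Krt84, little below the values over all libraries.

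The papilla keratins Krt84 and Krt36 had their lowest mean in the combination. Krt36, a type I keratin of the hair type (ENSMUSG00000020916.8, chr11:100102007-100105626, minus strand), measured 1476, 945, 1405 and 1165 CPM in the vehicle libraries and 654, 448, 737, 1090.2 and 529 CPM with the combination. Combination libraries 1, 2, 3 and 5 lay below all 4 vehicle libraries, and combination library 4 lay within the vehicle range. The mean was 1248 ± 242 CPM with vehicle (SD, n = 4) and 692 ± 249 CPM with the combination (SD, n = 5). This was a log2 change of -0.85 ± 0.27 (SE, 95% interval of the fold 0.374 to 0.820). The unadjusted p was 0.00571 and did not pass after adjustment over all genes (adjusted p = 0.269, edgeR).

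Krt36 in the other groups stayed closer to vehicle. It measured 1259, 970.2, 1262 and 958 CPM with regorafenib (log2 change -0.17 ± 0.28), 881, 1005 and 1415 CPM with anti-PD1 (-0.18 ± 0.31), and 817, 612 and 1476 CPM with the anti-CD40 agonist (-0.37 ± 0.31), with adjusted p-values of 0.754, 0.889 and 0.896. The anti-CD40 libraries spread over the range of the combination and of vehicle.

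Krt84, the type II keratin of the same papillae (ENSMUSG00000044294.8, chr15:101525026-101532820, minus strand), measured 1079, 744, 1124 and 907 CPM with vehicle and 564, 415, 658, 937 and 481 CPM with the combination. As with Krt36, combination library 4 alone reached the vehicle range. Its log2 change was -0.66 ± 0.24 (SE, adjusted p = 0.342). Krt84 measured 974, 750.0, 994 and 762 CPM with regorafenib, 655, 815 and 1040.2 CPM with anti-PD1 and 718, 547 and 1178 CPM with the anti-CD40 agonist, which gave log2 changes of -0.15 ± 0.26, -0.20 ± 0.28 and -0.24 ± 0.28 and adjusted p-values between 0.757 and 0.915.

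Against single drugs the papilla keratins were again lowest in the combination. Against regorafenib the log2 change was -0.69 ± 0.27 for Krt36 (adjusted p = 0.106) and -0.51 ± 0.24 for Krt84 (adjusted p = 0.178), with a mean of 1112 ± 171 CPM for Krt36 with regorafenib (SD, n = 4). These differences did not pass the threshold over all 5 combination libraries. Both did without combination library 4, the highest of its group, where the change was -0.91 for Krt36 (adjusted p = 0.0333) and -0.72 for Krt84 (adjusted p = 0.0498). Without combination library 2, the lowest, it was -0.56 for Krt36 (adjusted p = 0.177) and -0.40 for Krt84 (adjusted p = 0.293). The share of all genes called without combination library 4 is not given here. With limma-voom and sample weights, Krt36 also passed over all libraries (-0.75, adjusted p = 0.0219), and no other tested keratin did. That fit called 3052 of the 16909 genes between combination and regorafenib. Skeletal muscle markers summed to 23136 to 29394 CPM with regorafenib and were higher in every other library. With their score as a covariate the differences from regorafenib were -0.16 for Krt36 (adjusted p = 0.925) and -0.0568 for Krt84 (adjusted p = 0.975). The score separated regorafenib from the combination, so that fit cannot tell treatment from muscle content. Against anti-PD1 the change was -0.67 ± 0.29 for Krt36 (adjusted p = 0.442) and -0.45 ± 0.26 for Krt84 (adjusted p = 0.605). The interaction of the 2 drugs was -0.50 ± 0.40 on the log2 scale for Krt36 (adjusted p = 0.584), so a departure from the sum of the single effects was not detected.

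Krt76 and Krt78, type II keratins of oral suprabasal cells, had their highest mean with vehicle. Krt76 (ENSMUSG00000075402.1, chr15:101884351-101892920, minus strand) measured 1986, 1189, 2304 and 2112 CPM in the vehicle libraries. It measured 1355, 1005, 1515 and 1143 CPM with regorafenib, 1078, 558, 1001, 1888 and 555 CPM with the combination, 975, 1523 and 1833 CPM with anti-PD1 and 701, 848 and 1878 CPM with the anti-CD40 agonist. Vehicle library 2 was low for its group, and the combination and anti-CD40 groups each held 1 library near the vehicle mean. The log2 change was -0.60 ± 0.39 with regorafenib, -0.39 ± 0.42 with anti-PD1, -0.90 ± 0.37 with the combination (unadjusted p = 0.0271, adjusted p = 0.396) and -0.73 ± 0.43 with the anti-CD40 agonist. An annotated microRNA gene, Gm44356, overlaps an exon of Krt76 on the opposite strand and had 0 to 22 counts per library.

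Krt78 (ENSMUSG00000050463.9, chr15:101946001-101954287, minus strand) measured 637, 585, 817 and 758 CPM with vehicle, 504, 631, 586 and 510.1 CPM with regorafenib, and 437, 516 and 612 CPM with the anti-CD40 agonist. It ranged from 435 to 642 CPM with anti-PD1 and from 430.0 to 658 CPM with the combination. Each group overlapped vehicle. Changes on the log2 scale were -0.33 ± 0.15 with regorafenib (unadjusted p = 0.0464, adjusted p = 0.196), -0.42 ± 0.17 with the anti-CD40 agonist (unadjusted p = 0.0201, adjusted p = 0.814) and -0.29 with both anti-PD1 and the combination.

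Krt24, a further type I keratin (ENSMUSG00000020913.3, chr11:99279959-99285262, minus strand), measured 248, 177, 333 and 311 CPM with vehicle and 164, 204, 188 and 149.9 CPM with regorafenib. It measured 187, 132, 174, 247 and 115 CPM with the combination, 152, 206 and 236 CPM with anti-PD1 and 162, 174 and 257 CPM with the anti-CD40 agonist. Vehicle library 2 lay below combination libraries 1 and 4, and all 5 combination libraries lay below the other 3 vehicle libraries. On the log2 scale Krt24 differed from vehicle by -0.60 ± 0.24 with regorafenib (unadjusted p = 0.0250, adjusted p = 0.141), -0.64 ± 0.23 with the combination (unadjusted p = 0.0124, adjusted p = 0.329) and -0.43 with both antibodies given alone.

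The epidermal pair Krt1 and Krt10 had its highest mean with regorafenib, as did Krt13. Krt10, the type I chain (ENSMUSG00000019761.10, chr11:99385254-99389364, minus strand), measured 470.0, 439, 506 and 455 CPM with vehicle and 723, 589, 696 and 422 CPM with regorafenib. Regorafenib libraries 1, 2 and 3 lay above the vehicle range and library 4 below it. Krt10 measured 259, 394 and 441 CPM with anti-PD1, 373, 427, 522, 590.1 and 273 CPM with the combination and 291, 394 and 585 CPM with the anti-CD40 agonist. Krt10 had a log2 change of 0.38 ± 0.25 with regorafenib (adjusted p = 0.362), and for anti-PD1 the change was -0.36 ± 0.27, for the combination -0.10 ± 0.23 and for the anti-CD40 agonist -0.14 ± 0.27. The antisense gene Gm11940 overlaps Krt10 and had 2 to 13 counts per library.

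Krt1, the type II chain (ENSMUSG00000046834.7, chr15:101845426-101850794, minus strand), measured 88.0, 135, 135 and 36.5 CPM with vehicle and 139.8, 419, 116 and 103 CPM with regorafenib. It measured 31.4, 71.1 and 52.4 CPM with anti-PD1, 65.0, 226, 61.4, 91.3 and 80.1 CPM with the combination and 73.1, 40.3 and 87.1 CPM with the anti-CD40 agonist. Regorafenib library 2 and combination library 2 stood far above the rest of their groups. The log2 change with regorafenib was 0.98 ± 0.56 (adjusted p = 0.302), and without regorafenib library 2 it was 0.27 (adjusted p = 0.794). For anti-PD1 the change was -0.94 ± 0.62, for the combination 0.08 ± 0.53 (-0.41 without combination library 2) and for the anti-CD40 agonist -0.56 ± 0.61. Between combination and regorafenib it was -0.89 ± 0.53 for Krt1 (adjusted p = 0.286) and -0.48 ± 0.23 for Krt10 (adjusted p = 0.194). The value for Krt1 was -0.20 without regorafenib library 2 and -1.39 without combination library 2 (adjusted p = 0.0897). Between combination and anti-PD1 it was 1.02 ± 0.60 for Krt1 (0.53 without combination library 2) and 0.26 ± 0.26 for Krt10, with adjusted p-values of 0.628 and 0.804. Krt76 differed by -0.30 and -0.51 in those comparisons (adjusted p = 0.629 and 0.745).

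**Figure D2:**
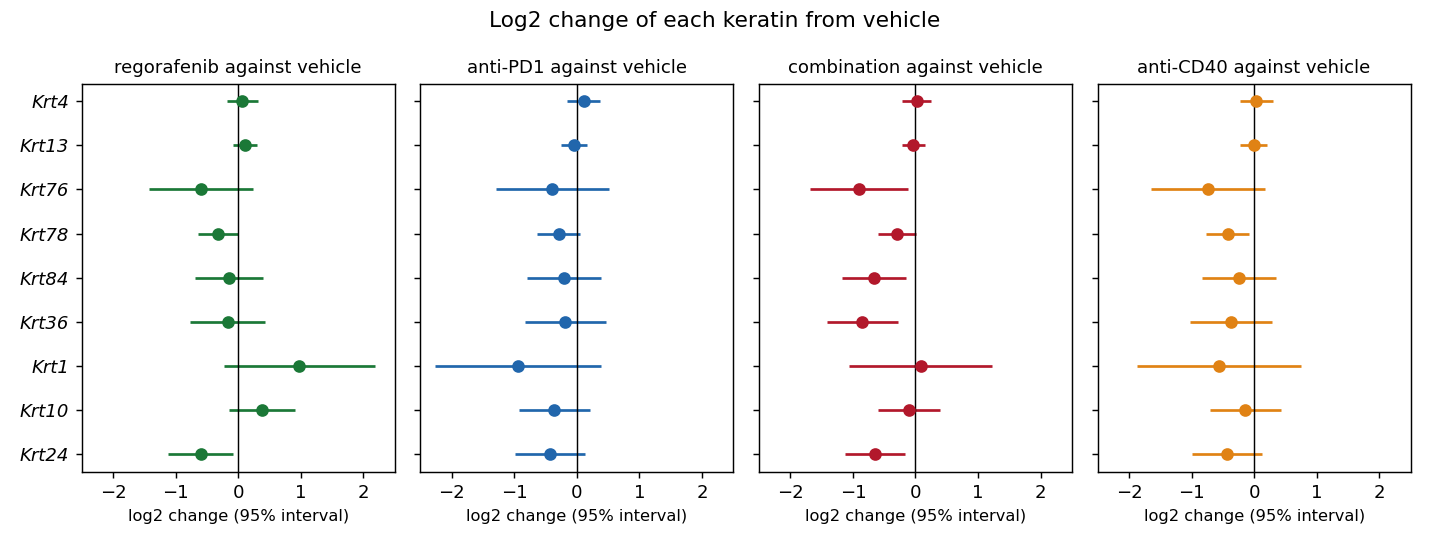
Log2 change of each keratin from vehicle in the edgeR fit (points), with its 95% interval (lines), in 1 panel per treatment. The intervals of Krt4 and Krt13 are narrow and centred near 0, and Krt1 has the widest intervals. Before adjustment over all genes, the intervals of Krt36, Krt84, Krt76 and Krt24 in the combination lie below 0. So do those of Krt24 and Krt78 with regorafenib and of Krt78 with the anti-CD40 agonist.

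Counted together, none of the 9 tested keratins passed the adjusted test in any of the 8 comparisons by edgeR, nor by DESeq2. With regorafenib 0 of 9 keratins were called beside 6.32% of all genes, and 2 of 9 had an unadjusted p under 0.05 beside 24.5% of all genes. With anti-PD1 0 of 9 were called beside 0% of all genes, and 0 of 9 were under 0.05 unadjusted beside 9.32%. With the combination 0 of 9 were called beside 0.0237% of all genes, and 4 of 9 (Krt76, Krt84, Krt36 and Krt24) were under 0.05 unadjusted beside 10.8%. These 4 followed each other across libraries, so they are not separate results. With the anti-CD40 agonist 0 of 9 were called beside 0%, and 1 of 9 was under 0.05 unadjusted beside 6.06%. Between combination and regorafenib 0 of 9 were called beside 10.5% of all genes (1 of 9 unadjusted, beside 28.1%), and between combination and anti-PD1 0 of 9 beside 0.00591% (1 of 9 unadjusted, beside 9.94%). For the interaction the counts were 0 of 9 beside 0.627% (0 unadjusted, beside 15.8%), and for any difference among the 5 groups 0 of 9 beside 4.49% (0 unadjusted, beside 25.9%), with the lowest adjusted p at 0.202 for Krt1 and 0.203 for Krt36.

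Krt13 with regorafenib against vehicle was the 1 case of groups that did not overlap, among the 9 keratins in the 6 comparisons of 2 groups. In that comparison 16.5% of all genes did not overlap. Among all genes the share that did not overlap against vehicle was 9.23% for anti-PD1, 3.64% for the combination and 5.87% for the anti-CD40 agonist, 14% between combination and regorafenib and 7.36% between combination and anti-PD1.

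The marker scores of the tissue changed some of these values. With the epithelium or the skeletal muscle score as a covariate, the change with regorafenib was -0.62 or -0.65 for Krt36, -0.54 or -0.57 for Krt84 and -1.03 or -1.12 for Krt76, where the fit without a score gave -0.17, -0.15 and -0.60. For Krt1 it was 0.0947 or 0.82 and for Krt10 0.0908 or 0.17. None of the 9 keratins was called with either score or with the salivary gland score in any of the 8 comparisons. The epithelium and skeletal muscle scores each separated regorafenib from vehicle and from the combination. Here and below, fits of those comparisons with either score therefore cannot tell treatment from tissue make-up.

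The log2 change was negative for 5 of the 9 keratins for regorafenib, 8 for anti-PD1, 7 for the combination and 8 for the anti-CD40 agonist, beside 49.7%, 50.2%, 46.7% and 46.4% of all genes. The median over the 9 was -0.15, -0.29, -0.29 and -0.37, beside medians over all genes of 0.0020, -0.00070, 0.011 and 0.012. These 4 comparisons share the same vehicle libraries, so they are not separate counts of one direction.

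Across libraries the keratins of a pair followed each other to differing degrees. Krt84 and Krt36 had a Pearson r of 0.99 over the log2 CPM of 19 libraries (permutation p = 1e-05, the smallest that 100000 resamples can give, adjusted p = 3e-05 over 3 pairs) and a Spearman rho of 0.98 (p = 1e-05, adjusted p = 3e-05). Taken as deviations from the group means, r was again 0.99, and it was 0.98 without the 2 libraries farthest from the median of Krt84. Krt4 and Krt13 had an r of 0.81 (permutation p = 5e-05, adjusted p = 7.5e-05) and a rho of 0.81 (p = 0.00011, adjusted p = 0.00017), with 0.91 within groups and 0.75 without 2 libraries. The count ratio of Krt13 to Krt4 stayed between 1.18 and 1.48 in all libraries.

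The epidermal partners Krt1 and Krt10 followed each other less closely. Their r was 0.49 (permutation p = 0.0346, adjusted p = 0.0346) and their rho 0.52 (p = 0.0227, adjusted p = 0.0227). Without the 2 libraries farthest from the median of Krt1, r was 0.30 (permutation p = 0.239), and as deviations from the group means it was 0.20 (permutation p = 0.416), so the relation rests on those libraries and on the group means. The pair of Krt2 with Krt10 was not computed because Krt2 did not pass the filter.

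**Figure D3:**
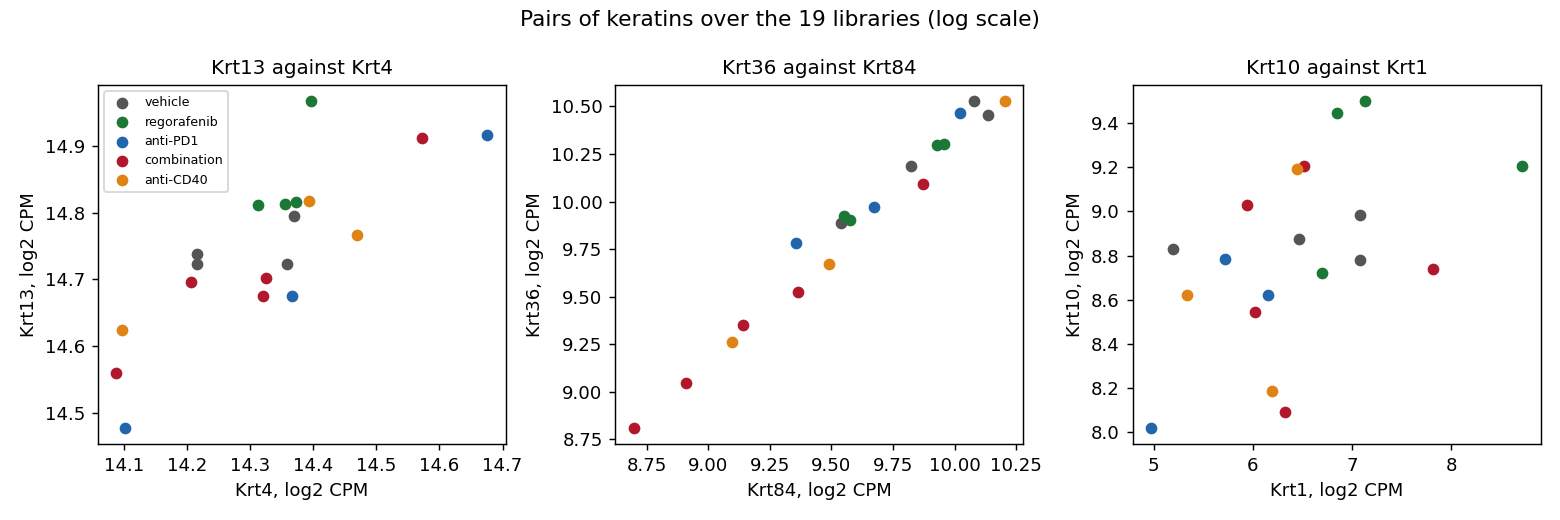
Log2 CPM of the 3 keratin pairs over the 19 libraries (1 point per library, coloured by group, axes on a log scale that do not start at 0). Krt36 and Krt84 lie along a line (r = 0.99), Krt13 and Krt4 scatter around one (r = 0.81), and Krt10 and Krt1 scatter widely (r = 0.49).

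Beyond the pairs, the keratins formed a graded block. Krt76 had an r of 0.90 with each of Krt84, Krt36 and Krt24, Krt78 had 0.84 with Krt24 and 0.76 with Krt76, and Krt10 had 0.72 with Krt13. Krt1 had an r between -0.12 and 0.01 with Krt76, Krt78, Krt84, Krt36 and Krt24. These values share libraries, depth and scaling and are given as a description.

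**Figure D4:**
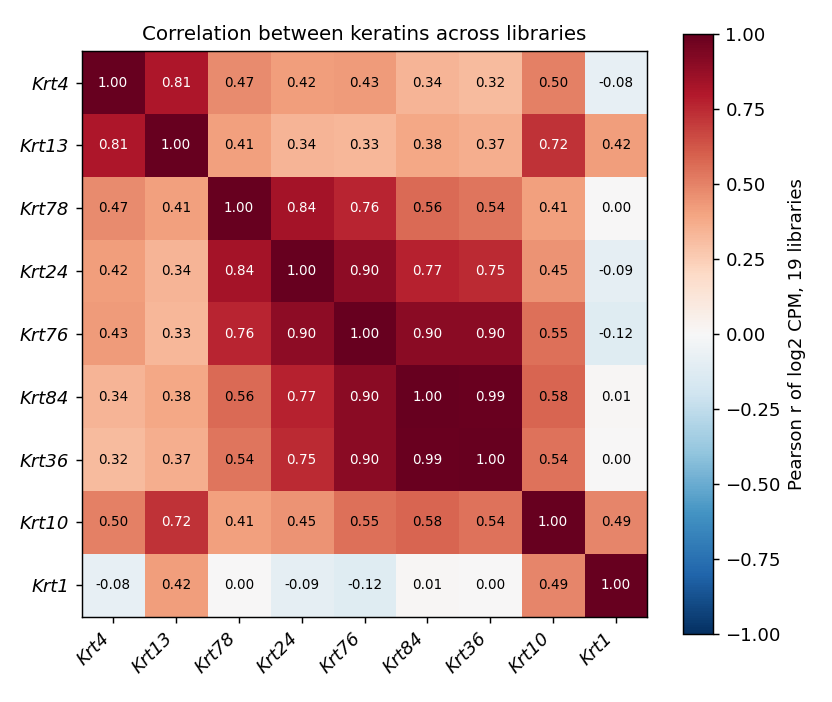
Pearson r of log2 CPM for each pair of the 9 tested keratins over 19 libraries, from blue (negative) to red (positive). Krt24, Krt76, Krt84 and Krt36 form a block with r from 0.75 to 0.99, and Krt1 stands outside it.

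The genes most like each pair were taken as those with the highest Pearson r to the pair's mean log2 CPM over 19 libraries, among 13425 other genes with a symbol and at least 1 CPM. For Krt84 and Krt36 they were Krtap3-1 (r = 0.98, a keratin-associated protein of hard keratin structures), Krt83 (0.98, a type II hair keratin) and Hoxc13 (0.98, a homeobox factor known for its part in hair and nail). For Krt76 and Krt78 they were Crnn (0.98, cornulin, a protein of upper squamous layers), Lyg1 (0.97) and Krt80 (0.96, a type II keratin). For Krt1 and Krt10 they were Bpifc (0.90), Gnai3 (0.89, a G protein alpha subunit) and Tgm3 (0.87, a transglutaminase of the cornified envelope). For Krt4 and Krt13 they were Tmem43 (0.85), Ociad2 (0.80) and Hmgn2 (0.78, a nucleosome-binding protein), the lowest likeness of the 4 pairs. Hoxc13 averaged 14.4 ± 2.86 CPM with vehicle (SD, n = 4) and 7.32 ± 2.63 CPM with the combination (SD, n = 5), and Krt83 averaged 88.6 ± 21.5 and 39.0 ± 17.0 CPM. Both genes were picked for following Krt84 and Krt36 over these same libraries, so their lower means are not a separate result.

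Other hair-type keratins and papilla structural genes were low in the combination in the same libraries as Krt84 and Krt36. Of the 14 genes of this list 12 were tested, and all 12 had a negative log2 change with the combination, with a median of -1.35 beside 0.011 over all genes. None of the 12 passed after adjustment by edgeR, 9 of 12 had an unadjusted p under 0.05 (beside 10.8% of all genes), DESeq2 called 1 and limma-voom with sample weights called 0. The median was -1.74 without combination library 4, with none called, and -1.12 with the salivary gland score as a covariate. Of the 12, 11 had their lowest group mean in the combination, and in 8 that mean was at most 50% of the vehicle mean. Genes of this list followed each other across libraries. Krt83, Hoxc13 and Krt81 had an r of 0.98, 0.98 and 0.96 with the mean of Krt84 and Krt36. Counts over this list, here and below, are therefore not separate results.

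Rptn (repetin), Tchh (trichohyalin), both structural proteins of papillae and hair sheath, and Krt81 were the most abundant of this list. Their log2 changes with the combination were -0.33 ± 0.18, -0.58 ± 0.31 and -1.40 ± 0.48 (adjusted p = 0.546, 0.524 and 0.324). Krt81, a type II hair keratin, measured 231, 120.5, 179 and 143 CPM with vehicle and 48.8, 32.3, 59.3, 123 and 56.0 CPM with the combination, where library 4 again stood highest. Krt86 and Krt33a, named after their values were seen, had changes of -1.72 ± 0.58 and -1.82 ± 0.74 (adjusted p = 0.323 and 0.398). Krt32, also named afterwards, differed from the rest with 32.6 ± 2.97 CPM with vehicle (SD, n = 4) and 30.4 ± 3.92 CPM with the combination (SD, n = 5).

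**Figure D5:**
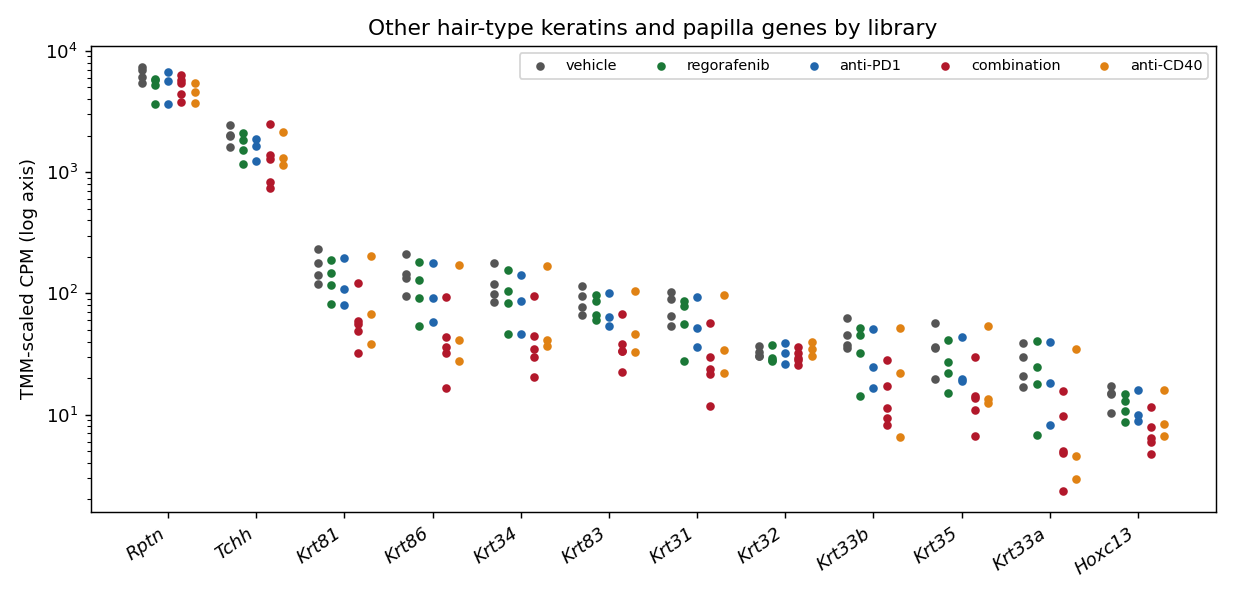
Level of the 12 other hair-type keratins and papilla genes in every library (TMM-scaled CPM, log axis), coloured by group. In 10 of the 12 genes at least 4 of the 5 combination libraries lie below all vehicle libraries, whereas Krt32 stays at one level.

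In the other comparisons the median over these 12 genes was -0.32 with regorafenib (12 of 12 negative), -0.36 with anti-PD1 (12 of 12) and -0.54 with the anti-CD40 agonist (11 of 12). None was called by edgeR, DESeq2 or limma-voom, and 0, 0 and 1 were under 0.05 unadjusted, beside 24.5%, 9.32% and 6.06% of all genes. Between combination and regorafenib the median was -1.02, with 0 called by edgeR beside 10.5% of all genes (6 unadjusted, beside 28.1%). DESeq2 called 1 and limma-voom 5, beside 2404 and 3052 of the 16909 genes. Without combination library 4, edgeR called 2, and the share over all genes in that fit is not given here. The median between combination and regorafenib was -0.0708 with the epithelium score as a covariate and 0.0666 with the skeletal muscle score, and the median for regorafenib against vehicle was -1.22 and -1.44. Between combination and anti-PD1 it was -0.96, with 0 called by edgeR (2 unadjusted, beside 9.94% of all genes), DESeq2 or limma-voom.

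With regorafenib, basal and wound keratins passed the test where the suprabasal keratins did not, although Krt1 changed by 0.98 ± 0.56 (SE). Of 7 basal and wound keratins tested, 6 rose and none fell by edgeR (beside 6.32% of all genes called), with a median log2 change of 0.83. Krt14, the basal type I chain, rose from 2133 ± 469 CPM with vehicle to 4067 ± 522 CPM with regorafenib (SD, n = 4 each, log2 change 0.93 ± 0.20, adjusted p = 0.0134). Krt6b rose by 0.83 ± 0.18 (adjusted p = 0.0157), Krt16 by 0.89 ± 0.22 (adjusted p = 0.0286) and Krt6a by 0.51 ± 0.13 (adjusted p = 0.0277), all induced in wounded epithelium, where Krt6a and Krt6b are near-identical copies whose reads may be split uncertainly. The other 2 that rose were Krt17 (1.06) and Krt5 (0.44), named after their values were seen. Krt15, also named afterwards, did not pass and averaged 737 ± 102 CPM with vehicle and 660 ± 34.9 CPM with regorafenib (SD, n = 4 each). The count of 6 became 2 without regorafenib library 1 or 4, 3 without regorafenib library 3 or vehicle library 3, and 1 without vehicle library 4. The epithelial markers summed to 11052 to 12046 CPM with regorafenib and 9088 to 10819 CPM with vehicle, and the 11 skeletal muscle markers, of which 5 fell and none rose, to 23136 to 29394 CPM and 34866 to 40632 CPM. With either score as a covariate none of the 7 keratins was called. Each score separated the regorafenib libraries from the vehicle libraries, so these fits cannot tell treatment from tissue make-up. Stomach markers, of which 6 of 7 tested rose and Gif was not tested, summed to 80.7 to 553 CPM with regorafenib and 0.397 to 287 CPM with vehicle. Their mean log2 CPM ran from 1.14 to 3.32 with regorafenib and from -2.85 to -1.18 with vehicle, so it separated these groups. The part of stomach RNA in the keratin changes with regorafenib was not tested.

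Among 24 tested partners of the suprabasal keratins (cornified envelope, desmosome and related proteins of 25 listed), 4 rose with regorafenib and none fell, beside 6.32% of all genes called. An unadjusted p under 0.05 was found for 10 of the 24, beside 24.5% of all genes. The log2 change was negative for 10 of the 24, beside 49.7% of all genes. Dsc2, a desmosomal cadherin, rose by 0.49 ± 0.08 (adjusted p = 0.00521), Ly6d, a surface protein of squamous cells, rose by 0.33 ± 0.08 (adjusted p = 0.0263), and Sprr1a and Sprr1b, cornified envelope precursors named after their values were seen, rose by 0.66 and 0.53. The count of 4 called became 1 without regorafenib library 1 or 4 or vehicle library 4, 2 without regorafenib library 3 or vehicle library 3, and 0 with the epithelium or skeletal muscle score as a covariate. The most abundant partners, Tgm3, Lor (loricrin) and Krtdap, had log2 changes of 0.20, -0.0823 and 0.17 and did not pass. Among regulators of squamous differentiation, the most abundant, Klf4, Trp63 and Hopx, had log2 changes with regorafenib of 0.035, 0.28 and 0.0653 and did not pass.

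Neither the basal and wound list nor the partners held a gene called by edgeR with anti-PD1, the combination or the anti-CD40 agonist against vehicle. At an unadjusted p under 0.05 the basal and wound list held 0, 2 and 0 and the partners 2, 5 and 3, beside 9.32%, 10.8% and 6.06% of all genes. DESeq2 called 1 partner with the combination and no other gene of these lists in those comparisons, and limma-voom called none. Between combination and regorafenib, 2 of 7 basal and wound keratins and 4 of 24 partners fell and none rose, beside 10.5% of all genes called, and with the epithelium or skeletal muscle score as a covariate none was called. The 2 basal keratins were Krt14 (-0.59) and Krt5 (-0.35), named after their values were seen, and at least 2 were called on leaving out 1 library only where that library was regorafenib 2, vehicle 4, combination 2, anti-CD40 2 or anti-CD40 3.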

How the data were processed

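The authors deposited whole-number read counts per gene for 55487 versioned Ensembl identifiers in 19 libraries, not normalized. A stranded mRNA kit was used, per the labels' protocols. The genome build GRCm38 and the tools STAR 2.7.2a and cutadapt 2.4 are named, per the submitters' processing notes. Counting tool, strand setting and the release of the annotation were not given in the sources used here, so overlapping, antisense and near-identical genes are uncertain. Symbols, positions and exon lengths came from GENCODE release M21, which matched 55227 identifiers.

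Genes with low counts were removed with filterByExpr by group, which left 16909 genes. edgeR 4.0.16 in R 4.3.3 fitted a robust quasi-likelihood model over all 19 libraries after TMM scaling (14 residual degrees of freedom). P-values are two-sided and adjusted by Benjamini and Hochberg over all tested genes, at a threshold of 0.05. Standard errors were obtained from each log2 change and its F statistic. Log2 CPM used a prior count of 2. The model was tried on simulated counts drawn gene by gene from the fitted spread. Those counts held no shared tissue differences between libraries, and error rates are not reported here. The 4 further gene lists and the members were chosen with earlier results of these data known. All 10 members are named, as are, per list, up to 2 passing genes per direction against vehicle and the 3 most abundant genes, and the 3 genes most like each pair. Alternatives covered a replicate block, 3 marker scores as covariates, leaving out each library, fits of 2 groups, RLE scaling, unfiltered genes, limma 3.58.1 and DESeq2 1.42.0. Part of the list of regulators of squamous differentiation is not reported here. Figures used matplotlib 3.10.9 in Python 3.11.15.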

Additional observations from a re-analysis of the deposited data

Results flagged for a closer look

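In groups of 4 or 5 libraries, a value was singled out where its gap to the nearest library, divided by the range of the group, passed Dixon's 95% critical value. Of 27 such tests (9 keratins in 3 groups) 3 passed, and chance alone passes about 1 group in 20. Krt13 was highest in regorafenib library 2 at 32024 CPM, 0.967 of the group's range from the next library. Krt1 was highest in the same library at 419 CPM (0.885 of the range) and, within the combination, in library 2 at 226 CPM (0.819 of the range).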

How the results depend on the processing

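Of the recomputed counts of called keratins, 219 stayed at 0 and 3 moved. Between combination and regorafenib the count was 1 with limma-voom (Krt36) and ran from 0 to 2 on leaving out 1 library, with 2 without combination library 4 (Krt84 and Krt36). For any difference among the 5 groups it was 1 with limma-voom (Krt36, F = 5.93, adjusted p = 0.0313). The pair Krt1 with Krt10 had r = 0.20 as deviations from group means and 0.30 without 2 libraries, neither past the threshold. Of the log2 changes, 20 recomputed values changed sign, none of them called. With the replicate block these were Krt13 (0.00171) and Krt10 (0.0244) for the combination against vehicle. With the epithelium score as a covariate they were Krt76 (0.14) and Krt1 (0.18) between combination and regorafenib, and with the skeletal muscle score Krt76 (0.24). With limma-voom they were Krt1 for the combination (-0.13) and Krt4 for the anti-CD40 agonist (-0.0944), each against vehicle. On leaving out 1 library, the combination against vehicle ran from -0.0532 to 0.0705 for Krt4, -0.0859 to 0.00426 for Krt13, -0.41 to 0.27 for Krt1 and -0.23 to 0.0328 for Krt10. Anti-PD1 ran from -0.0519 to 0.24 for Krt4 and -0.17 to 0.0564 for Krt13, and the anti-CD40 agonist from -0.0298 to 0.14 for Krt4, -0.0488 to 0.0467 for Krt13 and -0.45 to 0.067 for Krt10. The cause was not tested. With the replicate number as a block, 0 keratins were called in all 8 comparisons. The labels do not say whether the numbers pair libraries, and some title numbers differ from those in the column names. Same-numbered libraries of different groups had a median correlation of deviations of 0.111 (33 pairs, lowest -0.556). Differently numbered libraries of different groups had a median of -0.0686 (110 pairs). Of 19 libraries, 4 correlated best with their own number. These values do not settle whether libraries were paired.

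Over all genes, the count called with regorafenib was 1069 by edgeR, 1670 by DESeq2, 1673 by limma-voom, 715 with the block and 14 with the skeletal muscle score as a covariate. For anti-PD1, the combination and the anti-CD40 agonist against vehicle edgeR called 0, 4 and 0, DESeq2 71, 125 and 5 and limma-voom 3, 5 and 2. Between combination and regorafenib it was 1768 by edgeR, 2404 by DESeq2, 3052 by limma-voom and 1 with the skeletal muscle score. Between combination and anti-PD1 the counts by edgeR, DESeq2 and limma-voom were 1, 106 and 10, for the interaction 106, 584 and 200 (36 with the block), and among the 5 groups 760, 2481 and 2889 (210 with the block, 30 with the epithelium score). With 3 to 5 libraries per group and a spread of 25.3% or more within groups for 5 of the 9 keratins (Krt76, Krt84, Krt36, Krt1 and Krt24), the intervals of their changes were wide.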

Other observations

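A ratio of the papilla keratins was noticed after their values were seen and is given as a description. The count ratio of Krt36 to Krt84 was 1.12 ± 0.0366 in the combination (SD, n = 5, 1.08 to 1.16). It was 1.29 ± 0.0513 with vehicle (n = 4, 1.25 to 1.37), 1.28 ± 0.0177 with regorafenib (n = 4, 1.26 to 1.29), 1.31 ± 0.0697 with anti-PD1 (n = 3, 1.23 to 1.36) and 1.17 ± 0.0726 with the anti-CD40 agonist (n = 3, 1.12 to 1.25). All 5 combination libraries, library 4 included, lay below every vehicle, regorafenib and anti-PD1 library. The anti-CD40 libraries overlapped them. The ratio was picked because its values separated, so no test is given, and the comparisons share the combination libraries.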
